A study of Mus musculus with 4 samples.

Results

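Basophil-lineage cells were picked out of 4 libraries of single cells from the bone marrow (BM) and spleen of mice with and without a PyMT-B6 tumor. A cell was a member if it passed 4 thresholds, namely at least 1000 detected genes, at most 10% of its unique molecular identifiers (UMIs, each a counted transcript) from mitochondrial genes, at least 1 UMI of Ms4a2 or Fcer1a, and at least 10 UMIs of Mcpt8 plus Prss34 per 10000. The cells were thus chosen by their measured UMIs of these 4 genes, whose levels are given here only as a description. Of 16261 cells that passed the first 2 thresholds, 594 were members: 154 from control BM (CBM), 358 from tumor-bearing BM (TBM), 44 from control spleen (CS) and 38 from tumor-bearing spleen (TS).

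All mice were C57BL/6J, aged 8 to 16 weeks and, per the study's methods, female. Each of the 4 groups was 1 library, so tumor, organ, animal and library cannot be told apart, and the number of mice behind a library is not given in the sources used here. Tumor-bearing mice carried subcutaneous tumors of PyMT-B6, a line derived from mammary tumors that the polyoma middle T oncogene drives. Both organs were digested with enzymes, depleted of lineage-positive cells with beads and sorted, and the sorted populations were mixed at equal ratios, with the CD45+ cells taken as c-Kit+/Sca-1+ and c-Kit+/Sca-1- and the rest as CD45- endothelial and stromal fractions. Shares of cells are therefore shares of a sorted mixture and not of an organ, and both CD45+ gates were c-Kit+, whereas mature basophils are known to carry little c-Kit.

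Basophils are the rarest granulocytes. They arise in the marrow from progenitors that depend on the transcription factors GATA2 and C/EBPα, and IL-3, TSLP and IL-33 drive their growth and activation. They carry the high-affinity IgE receptor FcεRI, whose α chain (Fcer1a) binds IgE and whose β (Ms4a2) and γ (Fcer1g) chains signal, and on activation they release histamine, leukotrienes, IL-4, IL-13 and chemokines. In mice the serine proteases encoded by Mcpt8 and Prss34 mark basophils, whereas Cpa3 (carboxypeptidase A3) and Gata2 are shared with mast cells and Cma1, Mcpt1 and the tryptases mark mast cells.

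The DNA before a RefSeq start is shown for the genes that define these cells and for Cpa3, which the rule did not use. GATA factors bind the core motif GATAA, which reads as TTATC when the match is on the other strand. Both strands were searched, and matches are in capitals. Each line holds the 250 bases before the start that RefSeq gives on build GRCm38.p6, 5′ to 3′ along the gene's strand, at chr17:25298144-25298393 (plus strand) for Prss34, chr19:11623720-11623969 (minus) for Ms4a2, chr1:173227230-173227479 (minus) for Fcer1a, chr3:20242182-20242431 (minus) for Cpa3 and chr14:56085198-56085447 (minus) for Mcpt8.
Prss34: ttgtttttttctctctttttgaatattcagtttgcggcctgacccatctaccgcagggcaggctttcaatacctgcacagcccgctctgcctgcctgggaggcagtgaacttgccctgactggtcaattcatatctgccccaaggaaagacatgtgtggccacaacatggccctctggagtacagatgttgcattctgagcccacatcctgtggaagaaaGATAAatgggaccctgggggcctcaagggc
Ms4a2: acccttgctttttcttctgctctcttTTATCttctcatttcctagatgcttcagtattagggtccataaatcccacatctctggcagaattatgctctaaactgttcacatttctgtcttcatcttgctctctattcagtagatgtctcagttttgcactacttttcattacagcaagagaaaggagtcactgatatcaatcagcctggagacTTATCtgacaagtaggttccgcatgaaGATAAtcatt
Fcer1a: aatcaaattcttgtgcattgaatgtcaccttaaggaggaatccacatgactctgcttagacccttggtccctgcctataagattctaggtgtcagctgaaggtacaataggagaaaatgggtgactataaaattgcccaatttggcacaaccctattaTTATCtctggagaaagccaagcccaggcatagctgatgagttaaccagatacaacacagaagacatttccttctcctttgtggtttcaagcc
Cpa3: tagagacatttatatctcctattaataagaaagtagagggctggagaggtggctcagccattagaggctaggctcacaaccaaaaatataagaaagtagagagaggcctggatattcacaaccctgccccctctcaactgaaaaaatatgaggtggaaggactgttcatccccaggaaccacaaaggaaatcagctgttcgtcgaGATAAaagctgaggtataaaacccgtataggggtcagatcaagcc
Mcpt8: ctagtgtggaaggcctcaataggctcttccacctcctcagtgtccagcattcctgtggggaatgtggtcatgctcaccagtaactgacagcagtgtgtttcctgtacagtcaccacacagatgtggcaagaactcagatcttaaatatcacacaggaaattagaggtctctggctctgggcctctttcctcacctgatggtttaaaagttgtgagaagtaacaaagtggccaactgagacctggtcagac
The motif occurred 3 times before Ms4a2, the nearest match lying 10 bases before the start. It occurred once before Prss34 (30 bases before the start), once before Cpa3 (45 bases) and once before Fcer1a (92 bases). None was found before Mcpt8, which says only that these letters were not in this window. The window lies inside an annotated span of the gene as a whole, so another start may lie further upstream. Of 32851 RefSeq promoters of the same length, 22.58% held at least 1 match and 4.28% held 2 or more, so a match is a description and not a binding site. Gata2 itself was read at 1535 UMIs per 1000000 in CBM members and 1101 in TBM against 1180 in CS and 1019 in TS, and no comparison put it 2-fold apart.

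The libraries held 101811035 to 176094297 UMIs over all barcodes. The summed members held 1011543 UMIs in CBM and 3409283 in TBM, and 510936 in CS and 328609 in TS, so TBM values are the most precise and TS values the least. A level below is the sum of a gene's UMIs over a library's members per 1000000 member UMIs (CPM). Its 95% interval is an exact Poisson interval, ratios have exact conditional binomial intervals and shares exact binomial ones. These intervals cover counting error only, and since no group has a second library, no test between groups was possible. The median member held 5236.5 UMIs in CBM and 8042 in TBM against 7762.5 in CS and 7390 in TS, against 13738 to 26808 for all cells of the same libraries. Free RNA, read from barcodes with at most 100 UMIs, held 3.15 UMIs of Mcpt8 plus Prss34 per 10000 in CBM and 8.68 in TBM, and 0.332 in CS and 0.554 in TS, so the threshold of 10 lay close to the free level in TBM. Of the members, 2 (both in TBM) had a barcode that another library also held.

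Members made up 4.40% of the cells in CBM (interval 3.75 to 5.14) and 8.25% in TBM (7.45 to 9.11) against 1.36% in CS (0.990 to 1.82) and 0.732% in TS (0.519 to 1.00). The share was higher in TBM than in CBM and higher in both marrow libraries than in either spleen library, with intervals that did not overlap, while the CS and TS intervals overlapped narrowly. It counts only cells past the protease threshold. Cells with an Ms4a2 or Fcer1a UMI below that threshold were 499 of 3497 cells in CBM and 548 of 4340 in TBM, and 401 of 3236 in CS and 243 of 5188 in TS. The share is thus not that of all cells with FcεRI genes. When only members with fewer than 10 UMIs of other lineages' marker genes were counted, a limit that shallower cells meet more easily, the order turned. The shares were then 1.69% of cells in CBM and 0.645% in TBM, and 0.834% in CS against 0.231% in TS, so that TBM lay below both controls. Free RNA held the neutrophil genes among these markers at 10577 CPM in CBM and 17090 in TBM, and 2432.5 in CS and 3028 in TS. The part of free RNA in this order, and in all later values without such cells, was not tested. The protease level within members spread over nearly the whole permitted range. In CBM it ran from 10.2 through a median of 66.0 to 886 UMIs per 10000, in TBM from 10 through 247 to 768, in CS from 10.1 through 17.5 to 721, and in TS from 10.2 through 176 to 669. Members under 100 per 10000 were 87 of 154 in CBM and 117 of 358 in TBM, and 41 of 44 in CS and 15 of 38 in TS. The CS members thus sat at the bottom of the range, with 3 cells above 100, and the TS members did not.

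**Figure D1:**
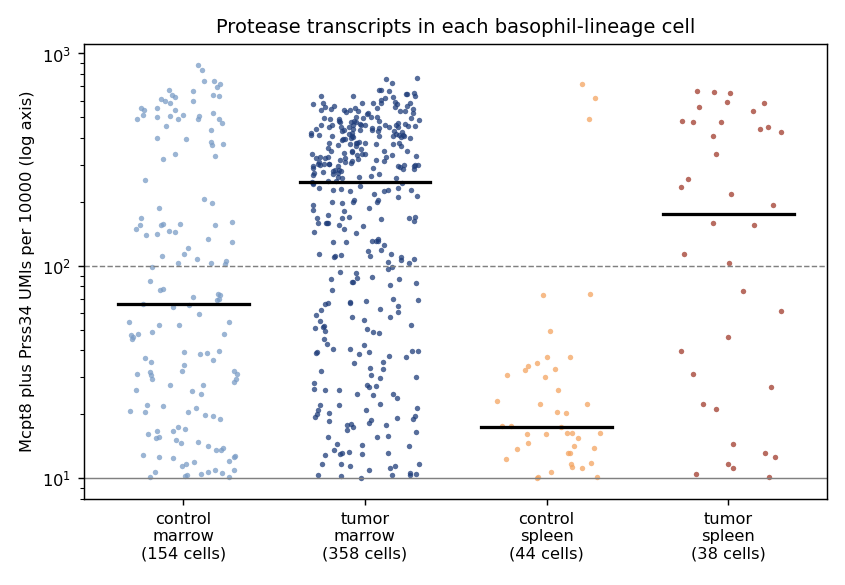
Mcpt8 plus Prss34 UMIs per 10000 UMIs (log axis) in each member, 1 point per cell, by library, with the median as a bar, the membership threshold of 10 as a solid line and 100 as a dashed line. Most CS points lie between 10 and 100, whereas TBM and TS have medians of 247 and 176.

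The label was checked against genes that the rule did not use. Basophil and mast cell genes were present in all libraries: Fcer1g at 932 to 1673 CPM, Cpa3 at 1480 to 3141, Hdc, which makes histamine, at 697 to 1420, and Cd200r3, an activating receptor of basophils and mast cells, at 256 to 1131. The mast cell genes Tpsb2, Tpsab1, Mcpt9, Mrgprb1 and Mrgprb2 had 0 UMIs in every library. The summed level of all 11 mast cell markers was 249 CPM in CBM and 187 in TBM against 1593 in CS and 338 in TS. The CS sum thus stood apart. Much of it was Mcpt1, which few CS cells held, but the rest still lay above the sums of the other libraries. Cma1, another of these markers, was also read mainly in CS. CS members with Kit held less Cd200r3, at 29.4 CPM against 538 in those without, so the basophil label is not shown for them. The CS members are described separately further on. Members with 10 or more UMIs of other lineages' markers, granulocyte progenitor genes included, were 95 of 154 in CBM and 330 of 358 in TBM, and 17 of 44 in CS against 26 of 38 in TS. Ctsg was among these markers. Its log2 ratio in members of 100 or more proteases per 10000 over those below was 0.97 in CBM, −0.04 in TBM and 0.75 in TS. That of Mpo was −1.04, −1.92 and −0.52. A member past the limit is therefore not shown to be a cell of another lineage. The members summed thus carried basophil genes in every library, but not each member is shown to be a basophil. Copies of a gene family can share reads, so the values of the Cd200r, Ly6c, Serpina3 and Hba-a genes are uncertain in that respect.

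Markers of other cells were also read in the members. Neutrophil genes summed to 3102 CPM in CBM and 3987 in TBM, and 3040 in CS and 4671 in TS, mostly Ctsg, Mpo and Elane, which granulocyte progenitors share. Monocyte genes summed to 781, 396, 264 and 274 CPM in the same order. Erythroid genes summed to 275, 1516, 331 and 189 CPM, and eosinophil genes to 48.4, 1637, 68.5 and 472 CPM. The TBM values of the last sums rested on few cells. In TBM, 5223 UMIs of Prg2 (eosinophil major basic protein) came from 13 cells, with 1921 in the highest, and 1754 UMIs of Hbb-bs came from 1 cell, with 14 in the next. In CS, 346 of 363 UMIs of Cd74, the invariant chain of MHC class II, and 68 of 73 UMIs of Irf8 came from the same cell. Values of Prg2, the hemoglobins, MHC class II genes and CS Irf8 therefore describe those few cells and not the members at large.

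Basophils are known for the cytokines and chemokines they secrete. Of 24 cytokine and 18 chemokine genes, 12 passed a mean of 50 CPM over the libraries, the level above which ratios were counted, and 15 had 0 UMIs in all members, among them Il3, Il5, Il9, Il10, Il1a, Il33, Csf2 and Csf3. Chemokines stood highest. Ccl3, a macrophage inflammatory protein that binds CCR1, was at 3767 CPM in CBM and 2149 in TBM against 2110 in CS and 1817 in TS. Ccl4, a related chemokine, was at 3907, 1572, 2308 and 1835 CPM. Both were highest in CBM. In the other 3 libraries Ccl3 lay close together, while Ccl4 ran from 1572 CPM in TBM to 2308 in CS. Ccl6, a ligand of CCR1, was instead highest in TBM, at 3131 CPM against 2114 in CBM, 1529 in CS and 1649 in TS. Ccl9, another CCR1 ligand, followed the order of Ccl3, at 1642, 970, 802 and 730 CPM in CBM, TBM, CS and TS.

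Il4, the cytokine that basophils are best known for, was read at 172 CPM in CBM (interval 147 to 200) and 67.2 in TBM (58.8 to 76.5), and 104 in CS (77.7 to 136) and 76.1 in TS (49.2 to 112). The CBM and TBM intervals did not overlap, and the CS and TS intervals did. Il13, its partner in type 2 immunity, was low and flat, at 28.7, 38.1, 43.1 and 33.5 CPM. Il6, an inflammatory cytokine, was at 733 CPM in CBM and 451 in TBM against 301 in CS and 396 in TS. Oncostatin M (Osm) was at 603, 429, 294 and 374 CPM and hepatocyte growth factor (Hgf) at 418, 273, 208 and 225 CPM, both in the same order as Il6. Csf1, the macrophage growth factor, was at 502 CPM in CBM and 175 in TBM, and 405 in CS and 323 in TS, and TBM was its low point. Tgfb1, encoding TGFβ1, varied least of the 12, between 212 and 300 CPM.

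Tnf went the other way. It was read at 10.9 CPM in CBM (interval 5.43 to 19.5), from 11 UMIs in 8 cells, and at 139 CPM in TBM (127 to 152), from 473 UMIs in 149 cells. In CS it was at 60.7 CPM (41.2 to 86.1) and in TS at 67.0 (42.0 to 101), so CBM stood below the other 3 libraries. With every cell thinned to 2000 UMIs, 2.61% of CBM members and 17.2% of TBM members had a Tnf UMI (5.19% and 41.6% before thinning), against 6.98% in CS and 15.8% in TS. Erythroid cells, which should lack Tnf and had median depths of 12091 to 17484 UMIs before thinning, showed 0 of 105 thinned cells with a UMI in CBM, 0 of 145 in TBM, 0 of 78 in CS and 0 of 65 in TS, which allows shares of up to 2.86%, 2.07%, 3.85% and 4.62%. Lif had 0 UMIs in CBM and 1 in CS, against 108 UMIs in 32 cells in TBM and 9 UMIs in 2 cells in TS. Cxcl2, a neutrophil attractant, was at 73.2 CPM in CBM and 178 in TBM, and 137 in CS and 82.2 in TS, and came from few cells, 9 of 154 in CBM and 67 of 358 in TBM.

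**Figure D2:**
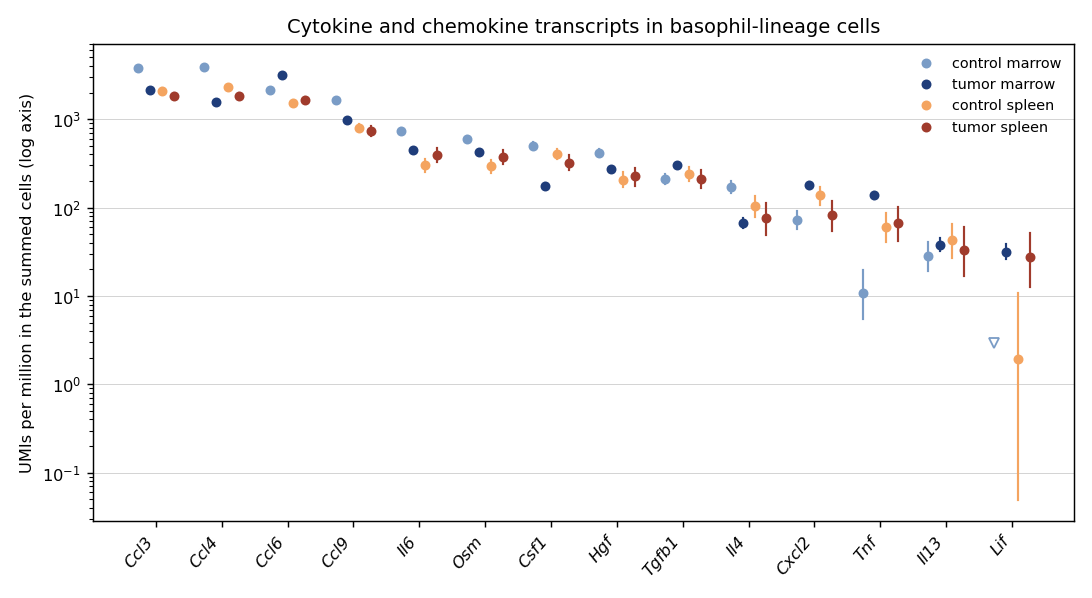
Levels of 14 cytokine and chemokine genes in members (CPM, log axis) by library, with exact Poisson 95% intervals that cover counting error only. The open triangle marks the limit of 3 counts for Lif in CBM, where it had 0 UMIs, and Tnf is at 10.9 in CBM and at 60.7 to 139 elsewhere.

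Pair by pair, 2 of the 12 cytokine and chemokine genes were at least 2-fold higher in TBM than in CBM (Tnf and Cxcl2), where 2.64% of all 3106 genes were, and 3 were at least 2-fold lower (Il4, Csf1 and Ccl4), where 2.58% were. Their median log2 ratio was −0.66, against −0.02 over all genes. The ratios were 3.67 for Tnf (interval 2.82 to 4.69), 1.28 for Cxcl2, −1.52 for Csf1 (−1.70 to −1.35), −1.36 for Il4 (−1.65 to −1.06) and −1.31 for Ccl4. In the spleen pair, TS over CS, none of the 12 was 2-fold higher or lower, where 2.87% and 5.6% of all genes were, and the median was −0.16. That median turned to 0.58 at a threshold of 20 proteases per 10000, 0.44 below 100, 0.22 without cycling cells and 1.00 without cells with UMIs of other lineages. In CS over CBM, 1 was 2-fold higher (Tnf, 2.48) and 4 were lower (Il6, Osm, Hgf and Ccl9), with a median of −0.74, where 3.73% and 4.19% of all genes were. When each cell was weighted equally in place of its UMIs, that median was −0.09. In TS over TBM, none was higher and 2 were lower (Tnf, −1.05, and Cxcl2, −1.12), where 0.612% and 2.09% of all genes were. Both turned in an alternative, Tnf to 0.12 when cells were thinned to equal depth and Cxcl2 to 0.91 below 100 proteases.

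The marrow differences were read again within 2 bands of protease level, since TBM held more members above 100 per 10000. In cells below 100, TBM over CBM was −2.08 for Csf1, −1.73 for Il4, −1.50 for Ccl4, −1.36 for Il6, −1.33 for Ccl3 and −1.21 for Osm. Other markers moved with this band, since cells with 10 to 15 proteases per 10000 had 1183 CPM of Elane and 450 of Cd200r3 in TBM against 496 and 1011 in CBM, and their part in the result was not tested. In cells of 100 or more, it was −1.21 for Csf1, −1.17 for Il4, −0.94 for Ccl4, −0.34 for Il6, −0.50 for Ccl3 and 0.02 for Osm. The median over the 12 genes was −1.21 in the lower band and −0.28 in the higher one. Il4 and Csf1 were thus lower by more than 2-fold in both bands, and Ccl4, Il6, Ccl3 and Osm only in the lower band. Tnf was higher in both, by at least 3.51 on the log2 scale in the lower band, where CBM had 0 UMIs, and by 2.89 in the higher band.

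Members held a large part of several of these transcripts in the marrow. With 1.71% of all UMIs of the cells in CBM and 4.01% in TBM, they held 42.3% and 56.5% of the Il4 UMIs, 28.7% and 55.5% of Ccl3, 37.5% and 69.9% of Il6, and 30.3% and 46.2% of Csf1. For Tnf the share was 3.51% in CBM (interval 1.77 to 6.20) and 45.0% in TBM. Marrow cells with an Ms4a2 or Fcer1a UMI below the protease threshold held smaller shares of Il4, Ccl3, Il6 and Csf1 in TBM. These were 50.4% in CBM and 34.6% in TBM for Il4, 57.4% and 25.4% for Il6, and 57.5% and 37.1% for Csf1. For Tnf they were 12.5% and 16.2%. Except for Tnf, higher shares in TBM members thus went with lower shares below the threshold, whose part was not tested. In the spleen, where members held 0.490% of all UMIs in CS and 0.235% in TS, they held 3.10% and 2.28% of Tnf, 10.5% and 5.56% of Il4, 8.60% and 28.0% of Ccl3 and 11.8% and 49.4% of Il6, but 1.06% and 0.285% of Cxcl2. The other cells with an Ms4a2 or Fcer1a UMI, which fell below the protease threshold (499 in CBM and 548 in TBM against 401 in CS and 243 in TS), held 82.1% of Ccl3 and 54.7% of Il4 in CS, and 49.7% and 9.78% in TS, so most of the Il4 of TS lay in neither group.

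The tumor-bearing marrow was compared with control marrow across all other genes. Of the 3106 genes tested, 82 were at least 2-fold higher in TBM and 80 at least 2-fold lower. Immediate early genes, which cells switch on within minutes of stimulation, were among them, with 7 of 19 tested genes 2-fold higher, none lower and a median of 0.62. Egr1 was at 358 CPM in CBM and 2194 in TBM, a log2 ratio of 2.62 (interval 2.46 to 2.77). Its levels in CS and TS were 1840 and 2027 CPM, so CBM was again the low library. Egr2 was at 11.9 CPM in CBM and 153 in TBM, and 29.4 in CS and 85.2 in TS, and Egr3 at 26.7, 108, 48.9 and 82.2. Fosb, Dusp2, Gadd45b and Klf2 were the other 4 genes, with ratios of 1.40, 1.75, 1.13 and 1.29. The heat-shock gene Dnajb1 moved with them, at 66.2 CPM in CBM and 166 in TBM against 151 in CS and 240 in TS, and was the 1 of 5 tested heat-shock genes past 2-fold. A part of cell handling in this order was not tested.

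Proliferation genes were higher in TBM as well. Of 12 tested genes of the G2 and M phases, 10 were at least 2-fold higher (2.64% of all genes) and none was lower, with a median of 1.57, and of 11 S phase genes 1 was higher, with a median of 0.48. Mki67, which marks cycling cells, was at 110 CPM in CBM and 356 in TBM, and 149 in CS and 286 in TS. Birc5 (survivin) had a TBM over CBM ratio of 1.95 and Top2a (topoisomerase II) one of 1.48, which was −1.51 without cells with 10 or more UMIs of other lineages. After thinning to 2000 UMIs, 19.6% of CBM members (interval 13.6 to 26.8), 37.9% of TBM members (32.8 to 43.1), 9.30% of CS members (2.59 to 22.1) and 28.9% of TS members (15.4 to 45.9) had a UMI of Mki67 or Top2a. The marrow intervals did not overlap and the spleen intervals did. The Mki67 ratio was 2.18 within cells below 100 proteases per 10000 and 1.22 within cells above, while among the other cells of the libraries it was 0.01.

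STAT5 is the factor that IL-3 and GM-CSF receptors activate. A mixed list of its targets and of survival genes had 3 of 7 tested members 2-fold higher in TBM and none lower, against 2.64% and 2.58% of all genes. In TS over CS 1 was higher and 1 lower, where 2.87% and 5.6% of all genes were. Cish, a negative-feedback target of STAT5, was at 37.6 CPM in CBM and 107 in TBM against 33.3 in CS and 85.2 in TS, and was more than 2-fold higher with tumor in both organs. Socs1, a further feedback gene, was at 47.5, 96.8, 54.8 and 63.9 CPM, and the survival gene Bcl2 at 43.5, 99.1, 54.8 and 57.8 CPM. Of the receptor genes, the shared β chain Csf2rb was lower with tumor in both organs, at 898 CPM in CBM and 441 in TBM, and 689 in CS and 423 in TS. Il3ra was at 134, 123, 84.2 and 122 CPM, close together in the marrow pair and higher in TS than in CS.

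Among cytokine receptors, 1 of 11 tested genes was at least 2-fold higher in TBM than in CBM and 3 were lower, against 2.64% and 2.58% of all genes, with a median of −0.20. The one that was higher was Il1rl1, the IL-33 receptor ST2, at 97.9 CPM in CBM and 218 in TBM against 196 in CS and 225 in TS. Il18r1, a chain of the IL-18 receptor, was lower, at 364 CPM in CBM and 108 in TBM, and 145 in CS and 57.8 in TS. Il7r, which pairs with the TSLP receptor as well as in the IL-7 receptor, was at 213, 51.3, 92.0 and 21.3 CPM. Csf2rb was the remaining one. Cxcr2, a receptor for Cxcl2, was at 307 CPM in CBM and 94.2 in TBM against 143 in CS and 70.0 in TS, and it and Cd200r4 were the 2 of 13 other surface receptors past 2-fold, both lower in TBM. None of the 12 tested genes of FcεRI signalling and none of the 12 adhesion genes was 2-fold apart in the marrow pair, which is near the background.

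The genes with the most extreme marrow ratios outside these lists were Cd7 and Serpina3g. Cd7, a surface glycoprotein best known from T and NK cells, was at 240 CPM in CBM and 9.39 in TBM, and 299 in CS and 6.09 in TS, so that both tumor libraries were far below both controls. The ratio was −4.68 in marrow (interval −5.26 to −4.14) and −5.62 in spleen (−8.68 to −3.74), and thinned cells with a Cd7 UMI were 34.6% in CBM and 2.82% in TBM against 48.8% in CS and 0 of 38 in TS, which allows up to 7.89%. Serpina3g, an intracellular inhibitor of proteases, did the reverse, at 8.90 CPM in CBM and 179 in TBM, and 17.6 in CS and 97.4 in TS, with ratios of 4.33 and 2.47. Arl4c, a small GTPase, was lower with tumor in both organs, at 179, 41.4, 108 and 21.3 CPM. Lst1 and Igsf6, both leukocyte surface proteins, and Tmcc1 were lower in TBM, with ratios of −1.91, −1.85 and −1.80. Klk8, a serine protease of the kallikrein family, was at 11.9 CPM in CBM and at 58.4 to 70.5 in the other 3 libraries. Lcn2, a neutrophil granule gene, was at 41.5, 205, 1.96 and 100 CPM, but free RNA held it at 12.5, 180, 2.96 and 26.1 CPM, so its order followed that of free RNA, whose part in the result was not tested.

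**Figure D3:**
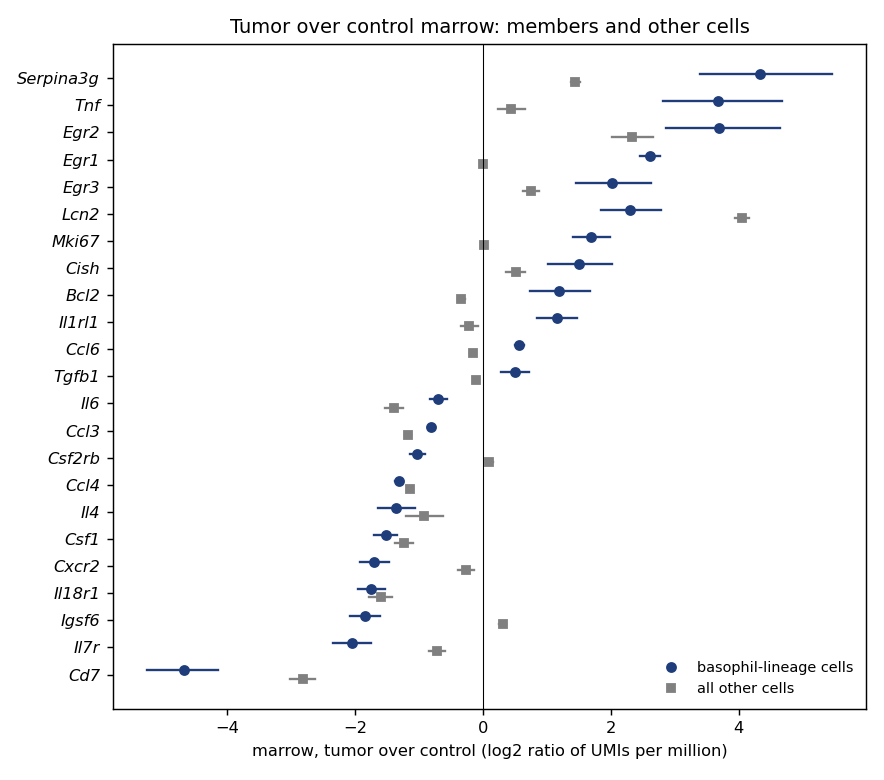
Log2 ratio of TBM over CBM for 23 genes in members (circles) and in all other cells of the same libraries (squares), with 95% intervals that cover counting error only. Tnf, Egr1 and Mki67 lie at 3.67, 2.62 and 1.70 in members and at 0.44, 0.00 and 0.01 in the other cells, while Csf1, Il18r1 and Ccl4 are lower in both.

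The same ratios were read in all other cells to see which differences the libraries shared. For Egr1 the other cells were at 0.00, for Mki67 at 0.01, for Tnf at 0.44, for Bcl2 at −0.34 and for Igsf6 at 0.31, against −1.85 in members. For Csf1 (−1.24), Il18r1 (−1.60), Ccl4 (−1.14), Il6 (−1.39) and Cd7 (−2.82) the other cells were lower in TBM too. Those cells include the cells with FcεRI genes below the threshold, which held most of the remaining Ccl3 and Il6. These are 2 libraries, and the difference between members and other cells was not tested.

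In the spleen pair, 89 of 3106 genes were at least 2-fold higher in TS than in CS and 174 lower. Members numbered 44 and 38, so intervals are wide. Of the 14 basophil and mast cell identity genes, 1 was higher (Grm6, a glutamate receptor gene, 1.11) and none lower, with a median of 0.21. Cd200r3 was at 256 CPM in CS and 447 in TS. Of 12 tested G2 and M phase genes, 4 were higher and none lower. Granule genes split both ways, with 2 of 10 higher and 2 lower. Ctsg (cathepsin G) was at 967 CPM in CS and 2818 in TS, whereas Gzmb (granzyme B) was at 2147 in CS and 143 in TS. The Gzmb of CS lay mainly in 15 of its 44 members, which also carried Kit and are described further on, so the spleen ratios of such genes compare libraries that differ in which cells met the rule. Among transcription factors 2 of 16 were lower, namely Id2, at 536 CPM in CS and 94.3 in TS, and Irf8, which rested on 1 cell. Klf5, H1f0 (a linker histone) and Cmc2 were higher in TS, at 122, 116 and 70.0 CPM against 21.5, 15.7 and 13.7 in CS, and the marrow libraries sat at the TS level for all of these.

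Of 11 tested cytokine receptors 4 were 2-fold lower in TS than in CS, namely Kit, Il7r, Csf2rb2 and Il18r1, and none was higher, where 5.6% of all genes were lower. The 13 other surface receptors had 1 gene 2-fold lower (Cxcr2) and none higher, while 9 lay above 0 and the median was 0.28. The spleen ratio of Cxcr2 was 0.047 at a threshold of 20 proteases per 10000 and 0.45 without cells with UMIs of other lineages. Csf2rb2, the IL-3-specific β chain of mice, was at 256 CPM in CBM and 148 in TBM against 284 in CS and 104 in TS. Il7r and Il18r1 were thus lower with tumor in both organs, although the spleen ratio of Il18r1 (−1.32) was 0.50 among the few cells with under 10 UMIs of other lineages' markers. Of 12 tested genes of FcεRI signalling 2 were lower, namely Inpp5d, which encodes the inhibitory phosphatase SHIP1, at 125 CPM in CS and 36.5 in TS, and Prkcb, a protein kinase C, at 139 and 15.2 CPM. Of 12 tested adhesion genes 2 were lower, Itga4 and Cd44. Cd44, the hyaluronan receptor, was at 127 CPM in CS and 51.7 in TS, but was at 0.18 on the log2 scale when cells were thinned to equal depth.

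**Figure D4:**
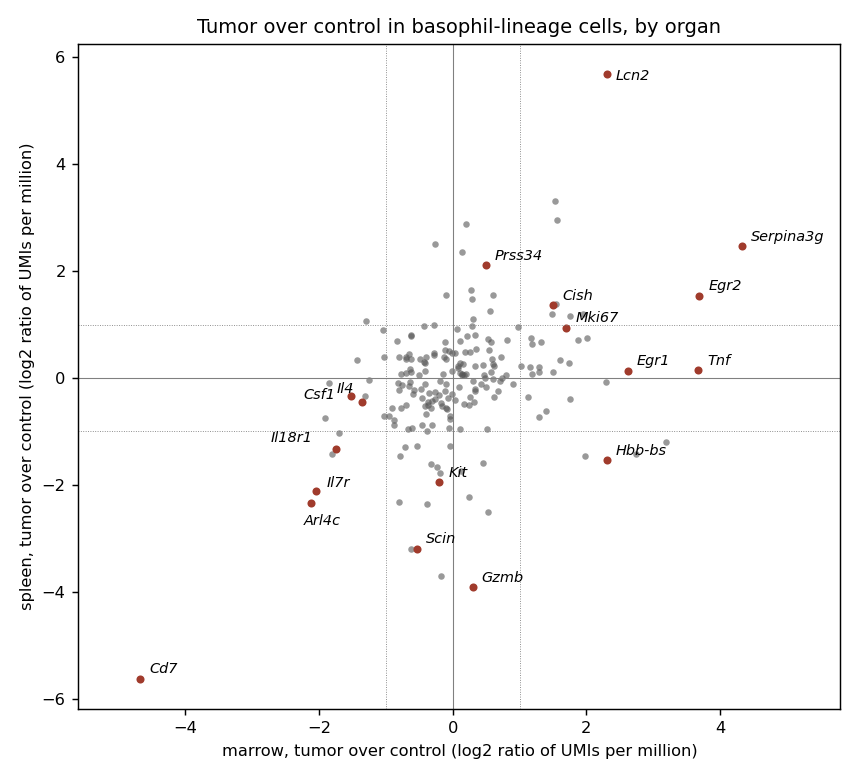
Log2 ratio of TS over CS (vertical) against TBM over CBM (horizontal) in members, for 205 genes of the lists and named genes with at least 50 CPM on average, 18 of them labelled, with dotted lines at 2-fold. Genes with no UMI in a library were left out, as was Prg2, which rested on few cells. Cd7, Il7r, Arl4c and Il18r1 lie below −1 on both axes and Serpina3g, Egr2, Cish and Lcn2 above 1 on both, whereas Egr1 and Tnf lie near 0 on the spleen axis and Gzmb, Scin and Kit near 0 on the marrow axis.

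Several of the genes that set CS apart were read mainly in a group of cells within it. Gzmb was at 34.6 CPM in CBM and 42.5 in TBM, and 2147 in CS and 143 in TS. Itga4, the α4 integrin chain of VLA-4, was at 70.2, 76.6, 750 and 225 CPM, and Kit, the receptor for stem cell factor, at 44.5, 38.7, 458 and 119 CPM. Scin, which encodes an actin-severing protein, was at 11.9, 8.21, 638 and 70.0 CPM, Slc45a3, a solute carrier, at 6.92, 5.87, 164 and 51.7 CPM, and Cited4, a transcriptional co-activator, at 0.989, 1.17, 170 and 36.5 CPM. All 6 were highest in CS and next highest in TS. The TS value of Cited4 came from 1 cell, and without the highest cell the TS over TBM ratio of Gzmb was 0.64 in place of 1.75. Cma1 (mast cell chymase) was found in 9 CS cells and 1 TS cell, and Mcpt1, another mast cell protease, had 427 UMIs in 4 CS cells and 0 elsewhere.

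Within CS, 15 of the 44 members held at least 10 Gzmb UMIs, 21 held at least 20 Ccl3 UMIs, none held both and 8 held neither. All 15 Gzmb cells had a Kit UMI, as did 1 of the 21 Ccl3 cells. Ccl3 ran from 0 to 15 UMIs in the Gzmb cells, with a median of 1, and Gzmb from 0 to 8 in the Ccl3 cells, with a median of 0. The cut-offs were set after the values were seen. Both kinds of cell lay low in the protease range, with medians of 23.0 per 10000 in the Gzmb cells and 13.8 in the Ccl3 cells, the latter close to the threshold of 10. The Gzmb cells were the larger, with a median of 11407 UMIs against 5924. Il4 was found in both, with 20 UMIs in 11 Gzmb cells and 27 UMIs in 11 Ccl3 cells, whereas Il6 had 11 UMIs in the first and 130 in the second. In the other libraries Ccl3 cells prevailed, with 95 against 0 Gzmb cells in CBM, 164 against 2 in TBM and 14 against 1 in TS. Both Gzmb cells of TBM were also Ccl3 cells and had no Kit UMI, unlike those of CS.

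**Figure D5:**
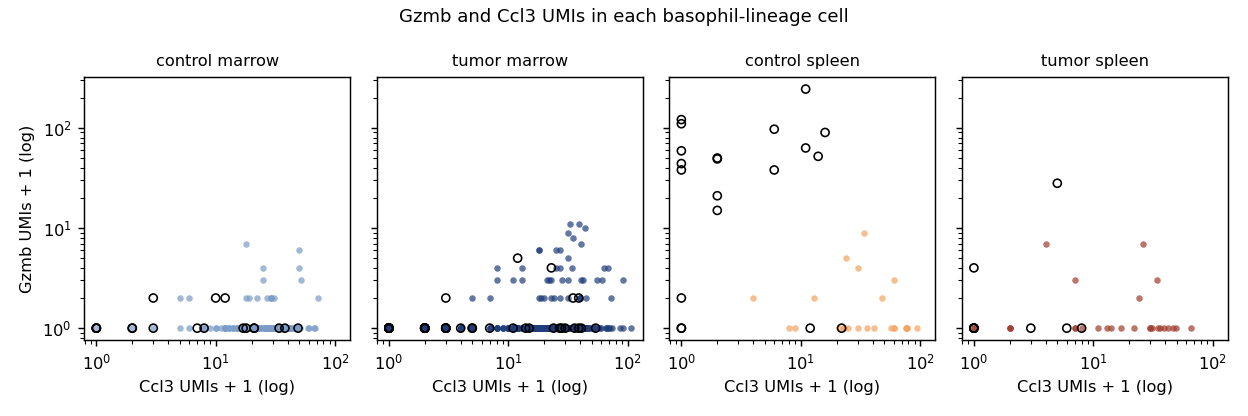
Gzmb UMIs against Ccl3 UMIs (each plus 1, log axes) in every member, 1 panel per library, with cells that had a Kit UMI as open circles and points that may overlap. In CS, 15 cells with at least 10 Gzmb UMIs lie to the upper left and are open circles, and 21 cells with at least 20 Ccl3 UMIs lie along the bottom.

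CS members were also divided by a Kit UMI after thinning, which 17 of 43 cells had and which regroups much the same cells, so these values describe the split and do not support it. Members with Kit had 5324 CPM of Gzmb, 3500 of Cpa3, 1353 of Itga4, 118 of Prss34, 412 of Ccl3 and 29.4 of Cd200r3. Members without Kit had 519, 1250, 250, 5635, 6423 and 538 CPM of the same genes. The Kit cells thus held more Cpa3 and α4 integrin and less of Prss34, of Ccl3 and of Cd200r3. Prss34 is a gene that chose the members, and most of its CS UMIs lay in the 3 cells above 100 proteases per 10000. Those cells had no Kit UMI. Members with a Kit UMI were 39.5% in CS after thinning (interval 25.0 to 55.6), against 5.23% in CBM, 5.08% in TBM and 10.5% in TS (2.94 to 24.8). The members with Kit were 8 cells in CBM, 18 in TBM and 4 in TS. Ccl3 was lower in them too, at 938 against 4976 CPM in CBM, 333 against 2557 in TBM and 125 against 2941 in TS. Cpa3 was not higher in those of the marrow, at 1000 against 1341 CPM in CBM and 778 against 1789 in TBM.

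Spleen and marrow of control mice were compared over all members, the Gzmb cells included. In CS over CBM, 116 genes were 2-fold higher and 130 lower, which is 3.73% and 4.19% of all genes tested. The largest counts were among immediate early genes, with 10 of 19 higher and none lower (median 1.04), and other surface receptors, with 7 of 13 lower and none higher (median −1.10). Outside the members the summed levels went the same ways, at 3387 CPM in CBM and 4439 in CS for the immediate early list. For the surface receptors they were 520 and 195 CPM, and the difference from members was not tested. Fos was at 591 CPM in CBM and 1388 in CS, Jun at 619 and 1272, and Nr4a1, a nuclear receptor, at 92.9 and 251. Cd200r3 was at 1131 and 256 CPM, Ccr1, a receptor for Ccl3, Ccl6 and Ccl9, at 312 and 114, and the complement receptor C3ar1 at 159 and 68.5. Of 16 tested transcription factors, 3 were higher (Id2, Myb and the 1-cell Irf8) and 1 lower (Cebpa, which encodes C/EBPα and was at 361 CPM in CBM and 212 in TBM against 151 in CS and 158 in TS). Ly6c2, a monocyte and progenitor surface gene, was at 237 CPM in CBM and 100 in TBM, and 15.7 in CS and 15.2 in TS, and Slpi, an inhibitor of leukocyte proteases, at 319, 390, 52.8 and 104 CPM. Of 6 tested lipid mediator and histamine genes, 2 were 2-fold lower in CS than in CBM and none was higher, with Alox15 (12/15-lipoxygenase) at 259 CPM in CBM and 127 in TBM against 48.9 in CS and 63.9 in TS, while Alox5ap, which serves leukotriene synthesis, was at 820 to 1417 CPM in all.

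Between the tumor-bearing organs, 19 genes were 2-fold higher and 65 lower in TS than in TBM. This total was the lowest of the 4 pairs, but the order turned in several alternatives, with 728 genes against 453 for TBM over CBM without cells with UMIs of other lineages and 275 against 128 without cycling cells. None of the basophil identity, lipid mediator, FcεRI signalling, cell cycle, heat-shock or NF-κB feedback genes was 2-fold apart in that pair, which is near the background of 0.612% of all genes higher and 2.09% lower. Genes past 2-fold included Lmo4, a LIM-domain cofactor, at 356 CPM in TBM and 864 in TS, Itga4 (1.56), Klf2 (1.65) and, on the lower side, Setd1b, a histone methyltransferase, at 55.1 and 12.2 CPM, Cdkn2d, a cyclin-dependent kinase inhibitor (−1.63), Arhgef18 (−1.54), the proton channel gene Hvcn1 (−1.48) and Osbpl3 (−1.42). These lower genes were read from 4 to 16 UMIs in TS.

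The 7 tested NF-κB feedback genes gave no 2-fold difference in any of the 4 pairs, with medians from −0.16 to 0.14, and since 0.612% to 5.6% of all genes were past 2-fold in a direction, none of 7 is near the background. Nfkbia was at 1044 to 1197 CPM and Ier3, a stress-response gene, at 2587 to 3645 CPM. Lgals1 and Lgals9, the 2 tested genes of a list linked to immune suppression, were past 2-fold in no pair. The MHC class II genes were past 2-fold in both pairs with CS, where 1 cell held most of their UMIs, and in neither other pair.

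Among the members themselves the protease level went with other genes, which is a description because the proteases chose the cells. Comparing cells at or above 100 per 10000 with those below, the log2 ratio of Cpa3 was 1.67 in CBM, 2.30 in TBM and 1.24 in TS, and that of Mki67 was 1.81, 0.86 and 1.83. Kit was lower in the cells with more protease, at −1.52, −2.44 and −2.76, as were Elane (neutrophil elastase), at −2.73, −3.40 and −2.35, and the progenitor gene Cd34, at −1.60, −2.47 and −1.88. In CS, 3 cells lay above 100 and no such ratio is given. Around the threshold, cells with 5 to 10 protease UMIs per 10000 numbered 35 in CBM and 33 in TBM, and 37 in CS and 9 in TS, and cells with 10 to 15 numbered 25, 24, 15 and 7. In CS, the cells just outside had 6024 CPM of Ccl3, 743 of Cd200r3 and 648 of Cpa3, and those just inside had 4380, 493 and 881. In TBM the cells just outside had 1237 CPM of Ccl3, 334 of Cd200r3 and 790 of Cpa3, and those just inside had 1572, 450 and 269. The TBM cells also carried the neutrophil genes Elane, at 1432 CPM just outside and 1183 just inside, and Mpo, at 2455 and 1718. Mpo was above Cd200r3 on both sides of the threshold in CBM, TBM and TS, and below it in CS.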

How the data were processed

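The deposited files were unfiltered 10x gene-by-barcode matrices of raw UMI counts, 1 per library, made by the authors with Cell Ranger 4.0 on mm10 from 3′ v3.1 libraries. The authors' later steps (SoupX, at least 350 genes, clustering) are not in these counts. Here the members were selected by the 4 thresholds given above, and their counts were summed per library and scaled to CPM in Python 3.11.15 (numpy 2.4.6, scipy 1.17.1, pandas 2.3.3, matplotlib 3.10.9). The 3106 genes whose CPM averaged 50 or more over the 4 libraries were compared, called at 2-fold. A library at 0 UMIs was set to 3 counts and the ratio written as a bound, and no ratio was given where both had at most 3. Shares of cells with a UMI used cells thinned to 2000 UMIs. Doublets were not called. The code was tested on simulated data.

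Members and gene lists were chosen with earlier results of these data known. Named genes came from the lists and from the 8 highest and 8 lowest ratios of each comparison, leaving out mitochondrial, ribosomal, hemoglobin, immunoglobulin and unnamed gene models. Alternatives varied the thresholds on genes, mitochondrial UMIs, proteases and mean CPM, both receptor chains, the removal of free RNA, large cells, shared barcodes, cycling cells and cells with other lineages' genes, and the weighting and depth of cells. After the data were seen, 4 were added, namely leaving out the highest cell of each gene, the 2 protease bands, and leaving out cells rich in hemoglobin, MHC class II or eosinophil granule UMIs. Results of a further gene list are not reported here.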

Additional observations from a re-analysis of the deposited data

Results flagged for a closer look

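Genes whose tumor over control ratio in members was past 2-fold in opposite directions in the 2 organs are given here, and the difference between the organs was not tested. The hemoglobin genes were higher in TBM than in CBM and lower in TS than in CS, with log2 ratios of 2.75 and −1.42 for Hba-a1, 1.98 and −1.45 for Hba-a2, 2.30 and −1.53 for Hbb-bs, and 3.19 and −1.20 for Hbb-bt, and 1 TBM cell held 1754 of the Hbb-bs UMIs. Erythroid genes in free RNA moved the same ways, at 9780 CPM in CBM and 11737 in TBM, and 9805 in CS against 4992 in TS, and their part was not tested. St8sia6, a sialyltransferase gene, was at 64.3 CPM in CBM and 26.1 in TBM against 39.1 in CS and 82.2 in TS, with ratios of −1.30 in marrow and 1.07 in spleen. The spleen ratio of St8sia6 was −0.32 without cycling cells, and the marrow ratio of Hba-a2 was −0.19 without cells with 10 or more UMIs of other lineages.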

How the results depend on the processing

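No paired analysis was possible because each group is 1 library with no replicate numbers, so no value below carries a test. The small numbers of spleen members (44 in CS and 38 in TS) limit ratios that use them.

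Values are given in the order CBM, TBM, CS, TS for shares and TBM over CBM, TS over CS, CS over CBM, TS over TBM for counts and medians, where all 4 moved. The main counts of genes past 2-fold were 162, 263, 246 and 84. Shares were 2.94% (CBM), 3.99% (TBM) and 0.667% (CS) among cells with at least 350 genes, 7.37% in TBM with both receptor chains, 3.37%, 7.33% and 0.618% (CBM, TBM, CS) at 20 proteases per 10000, 5.40% and 2.50% (CBM, CS) at 5, 2.72%, 3.06%, 0.773% and 0.366% without cells with Mki67 or Top2a UMIs, 1.69%, 0.645%, 0.834% and 0.231% without cells with 10 or more UMIs of other lineages, 1.92%, 5.55%, 0.0927% and 0.443% for cells of 100 or more proteases, and 2.49%, 2.70% and 0.289% (CBM, TBM, TS) for cells below 100. Counts were 73, 92, 107 and 25 at a mean of 100 CPM, 378, 849, 649 and 376 at 20 CPM, 348, 746, 525 and 355 in thinned cells, and 453, 846, 523 and 728 without cells with UMIs of other lineages. They were 250 and 410 (TBM over CBM, TS over CS) with cells weighted equally, 464 and 294 (TBM over CBM, TS over TBM) below 100 proteases, 140 (TS over TBM) at 100 or more, 534 (CS over CBM) at 20 proteases, 109 and 55 (CS over CBM, TS over TBM) at 5, 534 and 275 (TS over CS, TS over TBM) without cycling cells, and 406 (TS over CS) without the deepest 5% of cells.

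The median of the cytokine and chemokine genes was −0.49, 1.00, −0.25 and 0.75 without cells with UMIs of other lineages, which leaves 59, 28, 27 and 12 cells, and −1.21, 0.44, −0.98 and 0.29 below 100 proteases. It was −0.28 and −0.61 (TBM over CBM, TS over TBM) at 100 or more, 0.58 and −1.65 (TS over CS, CS over CBM) at 20 proteases, −0.27 (CS over CBM) at 5, −0.40, −0.16 and 0.20 (all but TS over CS) without cycling cells, −0.088 and 0.25 (CS over CBM, TS over TBM) with cells weighted equally, and −0.095 and 0.12 in thinned cells. In TBM over CBM it stayed below 0 in each of these.

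Some single genes changed direction, and the cause was not tested. Without cells with UMIs of other lineages, Hba-a2 (−0.19) and Top2a (−1.51) did in TBM over CBM, Cma1 (0.30), Il18r1 (0.50), Cxcr2 (0.45) and Top2a (−0.50) in TS over CS, and Tnf (0.077) and Il7r (0.14) in TS over TBM. In TS over CS, Prg2 was at −0.47 and Cxcr2 at 0.047 at 20 proteases, Prg2 at −0.0011 with both chains and at −0.13 without cells rich in foreign genes, St8sia6 at −0.32 without cycling cells, Mcpt8 at −0.45 below 100 proteases and Cd44 at 0.18 in thinned cells. Mcpt8 was at 0.34 in CS over CBM and Cxcl2 at 0.91 in TS over TBM below 100 proteases. In TS over TBM, Tnf (0.12) and Il7r (0.35) did in thinned cells, and Ly6c2 (0.63) did with 10% free RNA removed.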
